A study of Arabidopsis thaliana with 6 samples.

Results

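The beta-glucosidases described here were the 21 probe sets, of 22810 on the array, that the platform annotation pairs with 1 gene whose symbol is BGLU followed by a number, or PYK10. All 21 lie in different genes, and all 21 carry the suffix of a probe set designed for 1 transcript. The TAIR10.1 gene table holds 47 genes of the family, so 26 of them, among them the classical leaf myrosinase genes, are not analysed here. These 26 include BGLU21 and BGLU22, which share 1 probe set. Transcripts were measured on 1-colour Affymetrix arrays, with 3 biological replicates of Arabidopsis thaliana ceh1 and 3 of its parent line, which the labels describe as wild type. Neither an allele nor a transgene is named in the labels, and seeds of both genotypes were kept in the cold for 2 days at 4 °C and then grown alike for 2 weeks on 0.5-strength Murashige and Skoog medium, at 23 °C under days of 8 h and nights of 16 h. From knowledge of the mutant, ceh1 is a lesion in HDS, a plastid enzyme that makes isoprenoid precursors. About 20 plants were pooled for RNA, and since the labels name no organ, plants are taken as whole. Where 3 values are given for a genotype, they are those of replicates 1, 2 and 3 in that order.

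Beta-glucosidases of this family (glycoside hydrolase family 1) cut glucose from small molecules that plants store as glucosides. Defence compounds such as glucosinolates and coumarins, the hormone abscisic acid and the building blocks of lignin are kept in this form and are set free when enzyme and substrate meet. PYK10 (AT3G09260, also called BGLU23) is the main protein of ER bodies, spindle-shaped compartments of the endoplasmic reticulum that are frequent in roots and young seedlings, and it acts on indole glucosinolates.

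Among the members, BGLU25 was higher and BGLU33 was lower in ceh1. PYK10 was above every parent array in all 3 ceh1 arrays but did not pass the test. Of the 21 members, 11 were bright enough to be tested and 10 were not. Among the 11 tested, 1 rose, 1 fell and 9 did not pass (limma, adjusted p under 0.05). Over all 15922 probe sets tested, 3.77% were called, 2.62% higher and 1.15% lower. Whether the share of members called differs from that background was not tested. Replicates did not overlap between genotypes in 6 of the 11, 4 above and 2 below. Among all tested probe sets 27.5% had such replicates, 12.4% above and 15.1% below. Of the members above, BGLU45 passed the brightness filter only through its ceh1 arrays. The median log2 difference, ceh1 minus parent, was 0.27 over all 21 members, with those below the filter included. It was −0.04 over all probe sets other than controls before the filter, and −0.03 over those tested.

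**Figure D1:**
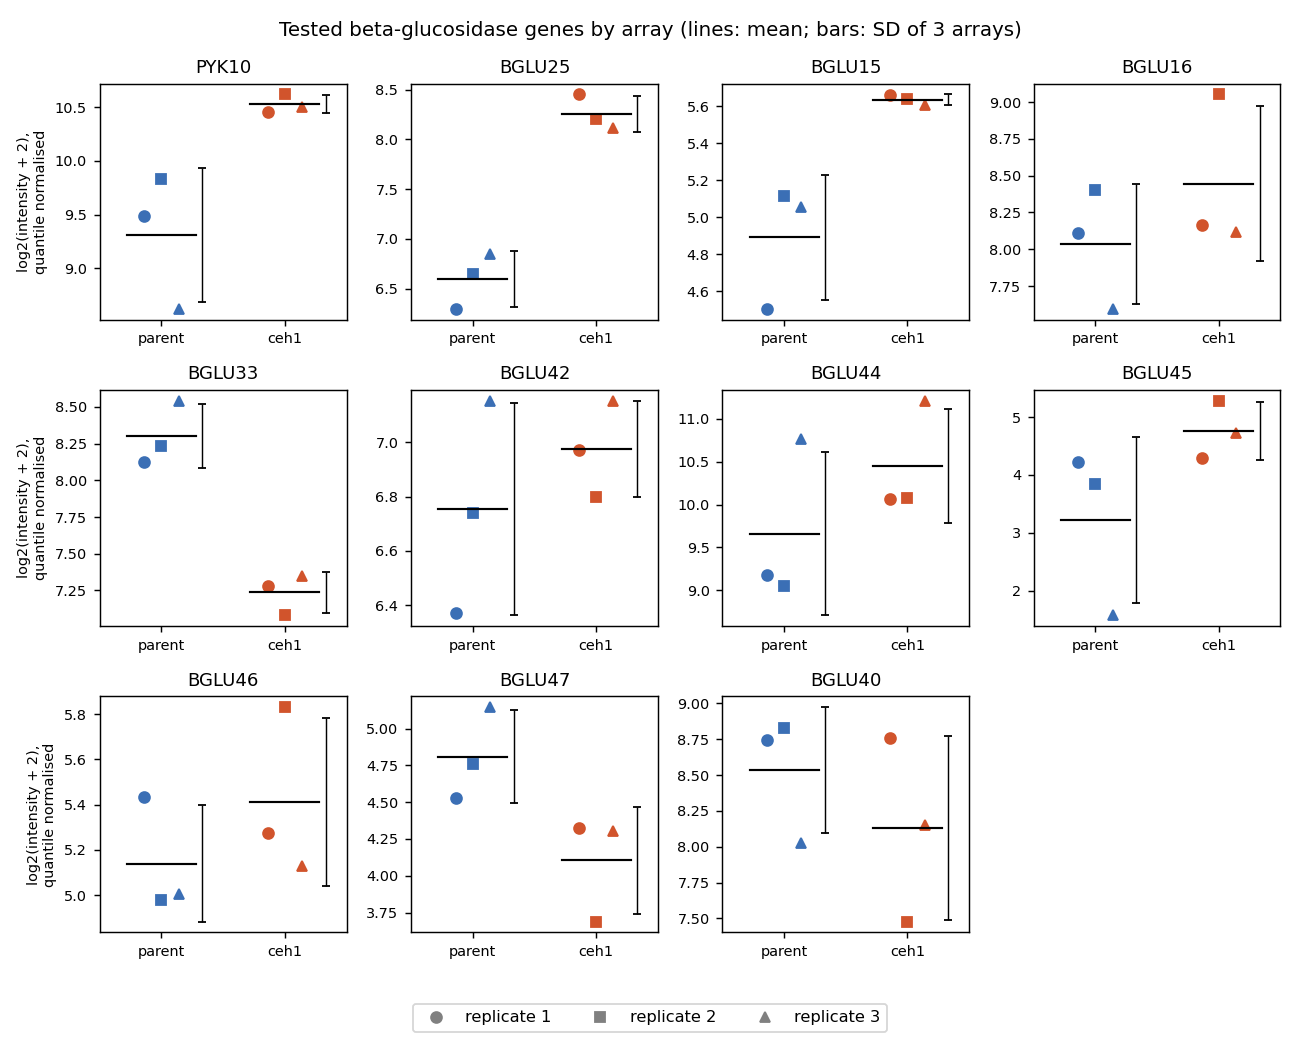
Signal of the 11 tested beta-glucosidase genes in each of the 6 arrays. The vertical axes show log2(intensity + 2) after quantile normalization and differ between panels, points are arrays with a marker for the replicate number, horizontal lines are means and bars beside them the SD of 3 arrays. The genotypes do not overlap for PYK10, BGLU25, BGLU15 and BGLU45, where ceh1 lies above, and for BGLU33 and BGLU47, where it lies below.

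The arrays differed within genotypes as well as between them. The trimmed mean of the deposited intensities ran from 109.85 in parent replicate 3 to 175.7 in ceh1 replicate 2, a 1.60-fold range that quantile normalization removes. The evening-phased clock gene GI had intensities of 211, 160 and 567 in the parent arrays and 178, 614 and 452 in the ceh1 arrays, so parent replicate 3 and ceh1 replicates 2 and 3 stood apart from the other 3 arrays. The 25S ribosomal RNA signal was 294 to 985 in the parent and 1132 to 4598 in ceh1, without overlap (p = 0.1 by an exact two-sided permutation test, the lowest value 3 arrays a side can give). The 3'/5' actin ratio of an older probe pair also separated the genotypes, by a log2 difference of −0.29 (p = 0.1, exact two-sided permutation), whereas a newer pair gave −0.04 (p = 0.7, exact two-sided permutation). Since ribosomal RNA and the older actin ratio split by genotype, their part in the results below cannot be told apart from it. The part of ribosomal RNA and actin signal was not tested. Fits without normalization and with the GI level as a covariate are given beside the results they change.

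BGLU25 (AT3G03640) belongs to the subfamily of PYK10. Its deposited intensity was 87.3, 88.1 and 83.0 in the parent arrays and 306, 358 and 327 in the ceh1 arrays. All ceh1 arrays were thus well above all parent arrays, and each genotype kept within a narrow range. After normalization its log2 signal averaged 6.60 ± 0.28 (SD, n = 3) for the parent and 8.26 ± 0.18 (SD, n = 3) for ceh1. The rise was 1.66 ± 0.20 (SE) in log2, or 3.16-fold (limma, adjusted p = 0.00758). BGLU25 passed under each of the 17 alternative settings, the highest adjusted p being 0.0458 (limma), without parent replicate 2. In whole plants, more cells of a type that makes a transcript and more transcript per cell cannot be told apart, here and in all results below.

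PYK10 had a deposited intensity of 836, 858 and 289.9 in the parent arrays and 1195, 1862 and 1633 in the ceh1 arrays. The genotypes did not overlap, but the parent arrays were unlike each other, since parent replicate 3 lay far below the other two. Their log2 signals after normalization were 9.49, 9.83 and 8.62 in the parent arrays and 10.46, 10.62 and 10.50 in the ceh1 arrays, so the SD was 0.62 in the parent arrays and 0.08 in the ceh1 arrays (n = 3 each). The log2 fold change of 1.21 had a 95% interval of 0.52 to 1.91, and missed the threshold with an adjusted p = 0.0733 (limma). Without parent replicate 3 the difference was smaller, at 0.87, and passed (limma, adjusted p = 0.0473). It also passed with array weights (limma, adjusted p = 0.0322). With the GI level as a covariate, an alternative chosen after seeing the data, it passed too (limma, adjusted p = 0.0241). The lowest and highest adjusted p among the 17 alternatives were 0.0241 and 0.195 (limma). The other 2 members of this subfamily, BGLU19 and BGLU24, were below the brightness filter.

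**Figure D2:**
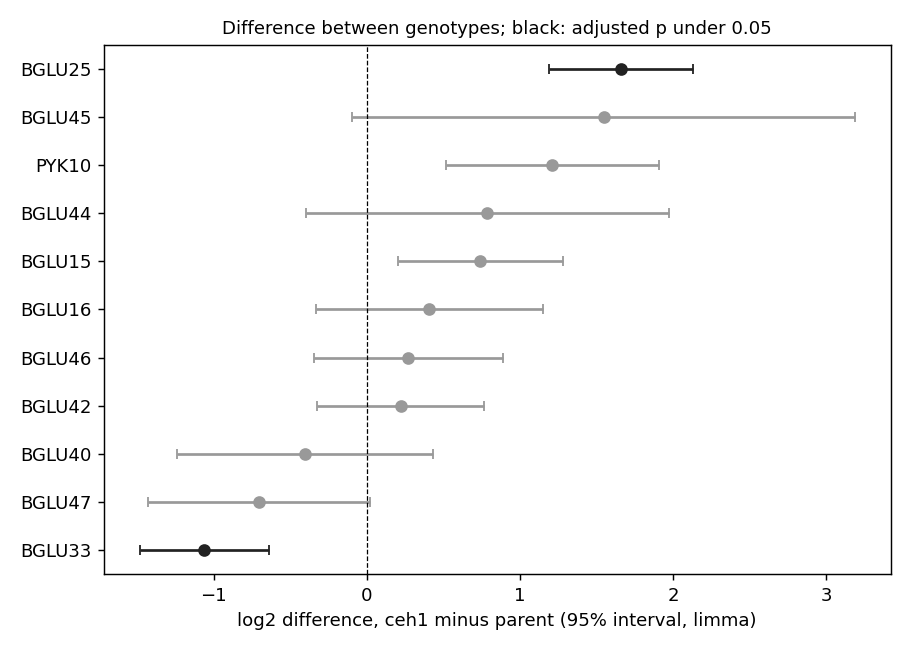
Difference between genotypes for the 11 tested beta-glucosidase genes. The horizontal axis is the log2 difference, ceh1 minus parent, points are estimates from 3 arrays per genotype and bars are 95% intervals from limma. BGLU25 at 1.66 and BGLU33 at −1.06 are in black (adjusted p under 0.05), and BGLU45 has the widest interval, from −0.09 to 3.19.

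Genes that act with PYK10 were compared in a list of 15, of which 6 had a single-gene probe set and all 6 were tested. Of these, 1, JAL23, rose and 5 did not pass, while 2.62% of all probe sets tested were called higher. The median log2 difference was 1.04 in the list against −0.03 over all probe sets tested. Parent replicate 3 was the lowest array for all 6 list genes. Without it their differences ran from −0.36 to 3.29, each lower than with all arrays. JAL23 (AT2G39330) encodes a jacalin-related lectin of the PYK10 complex, the aggregate that forms around PYK10 when cells are broken. Its intensity was 58.5, 45.0 and 26.6 in the parent arrays and 425, 244 and 1604 in the ceh1 arrays, and its log2 signal rose by 3.45 ± 0.63 (SE) (limma, adjusted p = 0.0321). All ceh1 arrays were above the parent, with a wide spread between them. The call was lost without parent replicate 1, parent replicate 2, parent replicate 3 or ceh1 replicate 1 (limma, adjusted p = 0.112, 0.122, 0.0573 and 0.0684).

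JAL33 and JAL22, lectins of the same complex, also had ceh1 arrays above all parent arrays, as did 12.4% of all probe sets tested. JAL33 had normalized log2 levels of 7.19, 7.39 and 5.98 in the parent arrays and 8.62, 8.41 and 8.22 in the ceh1 arrays, a difference of 1.57 (limma, adjusted p = 0.0648). JAL22 had 8.57, 8.62 and 8.13 in the parent arrays and 9.13, 9.14 and 9.03 in the ceh1 arrays, a difference of 0.66 (limma, adjusted p = 0.0976). Neither passed, but JAL33 did in 5 of the 17 alternatives and JAL22 in 1. For JAL33 these include the fits without normalization and with the GI level as a covariate (limma, adjusted p = 0.0115 and 0.00702). For JAL22 it was the fit with the GI level as a covariate (limma, adjusted p = 0.0451), an alternative chosen after seeing the data. For NAI2, which is needed for ER bodies to form, the difference was 1.09, and for the lectin gene JAL34 it was 0.99 (limma, adjusted p = 0.317 and 0.324), and the genotypes overlapped in both. Without parent replicate 3 these differences were 0.47 and 0.44, and those of JAL33 and JAL22 were 1.13 and 0.50. NAI1, the transcription factor that switches on PYK10 and NAI2, had a log2 difference of 0.08 ± 0.36 (SE) (limma, adjusted p = 0.929), and of −0.36 to 0.34 over the alternatives. Its levels were 6.78, 6.62 and 5.40 in the parent arrays and 6.17, 6.54 and 6.33 in the ceh1 arrays. Parent replicate 3 was the lowest of the 6 arrays for PYK10 and for all 6 of these genes, as it was for 18.8% of all probe sets tested.

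**Figure D3:**
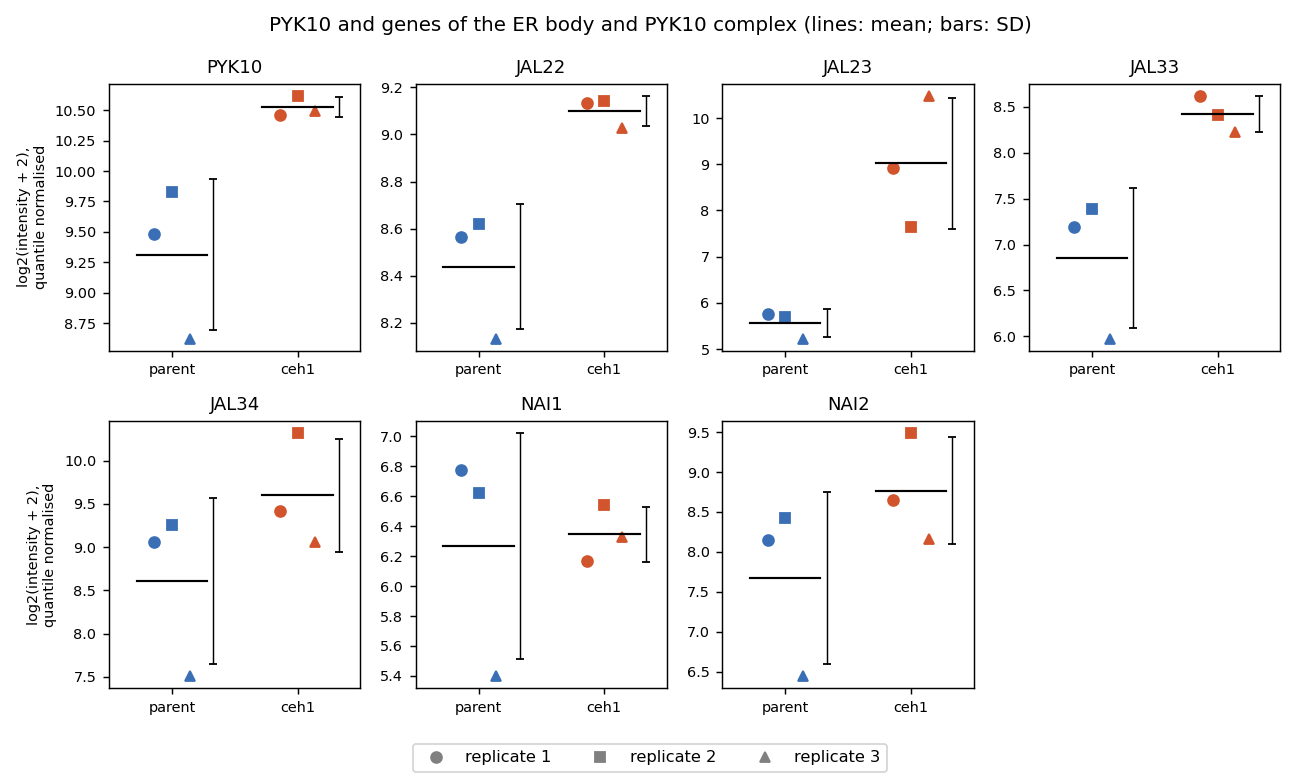
PYK10 and the 6 named genes of ER bodies and of the PYK10 complex in each array. The vertical axes show log2(intensity + 2) after quantile normalization and differ between panels, points are arrays, lines are means and bars the SD of 3 arrays. Parent replicate 3, the blue triangle, is lowest in every panel, and ceh1 lies above the parent without overlap for PYK10, JAL22, JAL23 and JAL33.

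The pattern of PYK10 over the 6 arrays was set against 8748 other named probe sets tested. The 5 most like it by Pearson's r of the log2 signals were AT3G62860 with an r of 0.993, AT1G23830 and AT3G56410 with 0.991 each, JAL22 with 0.987 and AT5G42830 with 0.986. An r above 0.9 was found for 167 of these probe sets, and the points share the same 6 arrays and 2 genotypes. Of the 5, AT5G42830 passed the test, with a log2 fold change of 2.53 ± 0.48 (SE) (limma, adjusted p = 0.0371). Among the other tested members, r with PYK10 was highest for BGLU45, at 0.91, and lowest for BGLU33, at −0.93. Parent replicate 3 was the lowest array for both PYK10 and BGLU45, and the intensity of BGLU45 there was only 0.890.

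BGLU33 (AT2G32860) encodes a vacuolar enzyme that releases abscisic acid from its glucose ester. Its intensity was 323, 271 and 272 in the parent arrays and 139, 163 and 191 in the ceh1 arrays. Every ceh1 array was below every parent array, and parent replicate 3, which stood apart for PYK10, was close to parent replicate 2 before normalization. After normalization parent replicate 3 was the highest array for BGLU33, at 8.54 against 8.12 and 8.23 in parent replicates 1 and 2. The log2 signal averaged 8.30 ± 0.22 (SD, n = 3) for the parent and 7.24 ± 0.14 (SD, n = 3) for ceh1. It fell by 1.06 ± 0.18 (SE) on the log2 scale, so that the parent was 2.09-fold higher (limma, adjusted p = 0.0261). The call depended on settings, and 11 of 17 alternatives kept it. With the arrays left unnormalized the median difference of all probe sets tested was 0.21, and that of BGLU33 was −0.81 (limma, adjusted p = 0.262). The call was also lost when any array but parent replicate 3 was left out. Those fits had differences from −1.15 to −0.98 and an adjusted p of limma from 0.0579 to 0.111. Without parent replicate 3 the difference was smaller, at −0.94, and passed (limma, adjusted p = 0.0416).

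The list for abscisic acid synthesis, conjugation and breakdown held 11 genes. Of its 2 named members UGT71C5, which conjugates abscisic acid with glucose, was tested and had a log2 difference of 0.08 (limma, adjusted p = 0.889). UGT71B6, a second glucosyltransferase that accepts abscisic acid, was too dim for the filter. Its intensity was 0.349, 0.393 and 0.430 in the parent arrays and 16.8, 49.9 and 27.9 in the ceh1 arrays. The parent arrays were at the bottom of the scale and all ceh1 arrays above them, and in the fit without the filter it was higher in ceh1 (limma, adjusted p = 0.00944). The size of its log2 difference was set by the pseudocount, at 4.24, 3.51 and 2.01 with pseudocounts of 1, 2 and 8. Its mean over all 6 arrays lay below the filter.

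BGLU15 (AT2G44450) encodes an enzyme that removes glucose from flavonol glycosides. Its intensity was 21.4, 29.3 and 23.7 in the parent arrays and 45.3, 55.6 and 56.8 in the ceh1 arrays, with no overlap. Its log2 difference of 0.74 had a 95% interval of 0.20 to 1.28 and did not pass (limma, adjusted p = 0.131), nor did it in any of the 16 alternatives in which it was tested. BGLU28 and BGLU29 follow BGLU15 directly on chromosome 2, and both were below the filter. BGLU28, which is known to break down glucosinolates under sulfur shortage, had intensities of 19.4, 13.6 and 9.71 in the parent arrays and 3.52, 0.732 and 46.4 in the ceh1 arrays. Its ceh1 arrays lay on both sides of the parent. The genes of the sulfur deficiency list have no single-gene probe set in the annotation used and are not analysed here.

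BGLU45 and BGLU46, neighbours on chromosome 1, and BGLU47 form the clade whose enzymes act on glucosides of lignin building blocks, which is shown for BGLU45 and BGLU46. BGLU45 had intensities of 17.1, 11.7 and 0.890 in the parent arrays and 17.4, 42.6 and 30.5 in the ceh1 arrays. The groups did not overlap, but parent replicate 1 and ceh1 replicate 1 were nearly equal and parent replicate 3 was far below the rest. The mean log2 signal of BGLU45 was 3.22 in the parent, below the filter at 3.80, and 4.76 in ceh1. It thus passed the filter only through the ceh1 arrays. The log2 difference was 1.55 with a 95% interval of −0.09 to 3.19 (limma, adjusted p = 0.265), and it was 0.74 without parent replicate 3 and 0.76 with array weights. BGLU46 had normalized log2 levels of 5.44, 4.98 and 5.004 in the parent arrays and 5.27, 5.83 and 5.13 in the ceh1 arrays, a difference of 0.27 with an interval of −0.34 to 0.89 (limma, adjusted p = 0.615), and of 0.06 without ceh1 replicate 2. The genotypes overlapped. BGLU47 went the other way, with log2 signals of 4.53, 4.76 and 5.15 in the parent arrays and 4.32, 3.69 and 4.30 in the ceh1 arrays, and a difference of −0.70 with an interval of −1.43 to 0.02 (limma, adjusted p = 0.253). Its groups did not overlap after normalization but did in the deposited intensities, so that the separation depends on the scaling.

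The glucosyltransferases that attach glucose to monolignols were in a list of 10 genes for monolignol synthesis and glucosylation, of which 3 were named, 2 were tested and 0 passed (limma, with 1 of the 2 at an unadjusted p under 0.05, beside 20.9% of all probe sets tested). The 2 tested genes went in opposite directions, and UGT72E2 had a log2 difference of −0.37 (limma, adjusted p = 0.555). UGT72E1 had the difference larger in size, 0.77 ± 0.29 (SE) (limma, adjusted p = 0.189). Its intensities were 183, 139 and 71.3 in the parent arrays and 167, 397 and 235 in the ceh1 arrays, and its groups overlapped on that scale but not after normalization.

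BGLU42 (AT5G36890) is a root enzyme that frees coumarins from their glucosides and is needed for resistance that root bacteria induce. Its intensity was 92.3, 93.8 and 102.7 in the parent arrays and 110.3, 133 and 168 in the ceh1 arrays. The deposited values did not overlap, but the normalized ones did, at 6.37, 6.74 and 7.15 in the parent arrays and 6.97, 6.80 and 7.15 in the ceh1 arrays. The log2 difference was 0.22 with an interval of −0.32 to 0.76 (limma, adjusted p = 0.648), and the difference was 0.03 without parent replicate 1 and 0.42 without parent replicate 3. In the coumarin list of 6 genes, 3 were named and 1, COSY, was tested, with a log2 difference of 0.16 (limma, adjusted p = 0.689). AT3G13610, the gene of the hydroxylase that commits phenylpropanoids to scopoletin, was below the filter, with intensities of 6.06, 0.560 and 1.85 in the parent arrays and 36.0, 35.1 and 15.0 in the ceh1 arrays. All its ceh1 arrays were above the parent, and it did not pass in the fit without the filter (limma, adjusted p = 0.0740). Its log2 difference was 2.96, 2.59 and 1.63 with pseudocounts of 1, 2 and 8.

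BGLU44 (AT3G18080) encodes an enzyme that prefers mannosides to glucosides in the test tube. Its intensity was 672, 484 and 1316 in the parent arrays and 918, 1248 and 2574 in the ceh1 arrays. The third replicate was highest within both genotypes, and the groups overlapped. The difference of 0.79 had an interval of −0.40 to 1.98 (limma, adjusted p = 0.430). Parent replicate 3 and ceh1 replicate 3 are also among the arrays where GI was high. In ceh1 replicate 2, where GI was high too, the log2 signal of BGLU44 was 10.08, near the 10.06 of ceh1 replicate 1, where GI was low. Over the 6 arrays Pearson's r between the log2 signals of BGLU44 and GI was 0.74. Among the 11 tested members r with GI ran from −0.86 to 0.74. Any link of BGLU44 to GI was not tested. With the GI level as a covariate the difference was 0.64 and did not pass (limma, adjusted p = 0.316). Without parent replicate 3 the difference was 1.33, and without ceh1 replicate 3 it was 0.41, and neither passed (limma, adjusted p = 0.0928 and 0.748). Its neighbour BGLU43 was below the filter.

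BGLU40 and BGLU16 are members without a role given here. BGLU40 had intensities of 496, 416 and 189.8 in the parent arrays and 379, 217 and 336 in the ceh1 arrays, and the groups overlapped. Its difference was −0.40 with an interval of −1.24 to 0.43 (limma, adjusted p = 0.579), moving from −0.72 without ceh1 replicate 1 to −0.08 without ceh1 replicate 2. Its r with GI over the 6 arrays was −0.86, the largest in size among the 11 tested members. BGLU44 had 0.74 and BGLU42 0.63, and the others lay between −0.39 and 0.28. BGLU40 was low where GI was high, in parent replicate 3 and in ceh1 replicates 2 and 3. With the GI level as a covariate its difference was −0.29 (limma, adjusted p = 0.461). Any link of BGLU40 to GI was not tested. BGLU16 had intensities of 319.7, 306 and 139.8 in the parent arrays and 253, 639 and 328 in the ceh1 arrays, a log2 difference of 0.41 with an interval of −0.33 to 1.15 (limma, adjusted p = 0.517), and of 0.11 without ceh1 replicate 2 and 0.19 without parent replicate 3. Its highest array was ceh1 replicate 2 and its lowest parent replicate 3, as for PYK10, BGLU45, NAI2, JAL34, JAL22 and UGT72E1. Parent replicate 3 was the lowest array for 18.8% of all probe sets tested.

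The 10 members below the filter were BGLU19, BGLU24, BGLU27, BGLU28, BGLU29, BGLU31, BGLU32, BGLU36, BGLU41 and BGLU43, with deposited intensities between 0.164 and 46.4. A share of 52.4% of the members was thus tested, against 64.7% of all single-gene probe sets. Of the 10, BGLU31 (AT5G24540) had groups that did not overlap after normalization, with intensities of 6.002, 4.14 and 0.580 in the parent arrays and 7.80, 23.5 and 40.1 in the ceh1 arrays. In the fit without the filter its log2 difference was 1.93 (limma, adjusted p = 0.178), and its neighbour on chromosome 5, BGLU32, had −0.56 (limma, adjusted p = 0.704). In that fit 0 of the 10 passed, beside 2.3% of all probe sets, and 1, BGLU31, had an unadjusted p under 0.05, beside 16.9% of all probe sets, with adjusted p values between 0.178 and 0.980 (limma). At such intensities a difference may not be detectable with 3 arrays per genotype. BGLU19 and BGLU36 had higher deposited values in all ceh1 arrays, at 1.71 to 6.13 against 0.599 to 1.59 and at 4.04 to 9.59 against 0.622 to 3.98, but overlapped once normalized.

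**Figure D4:**
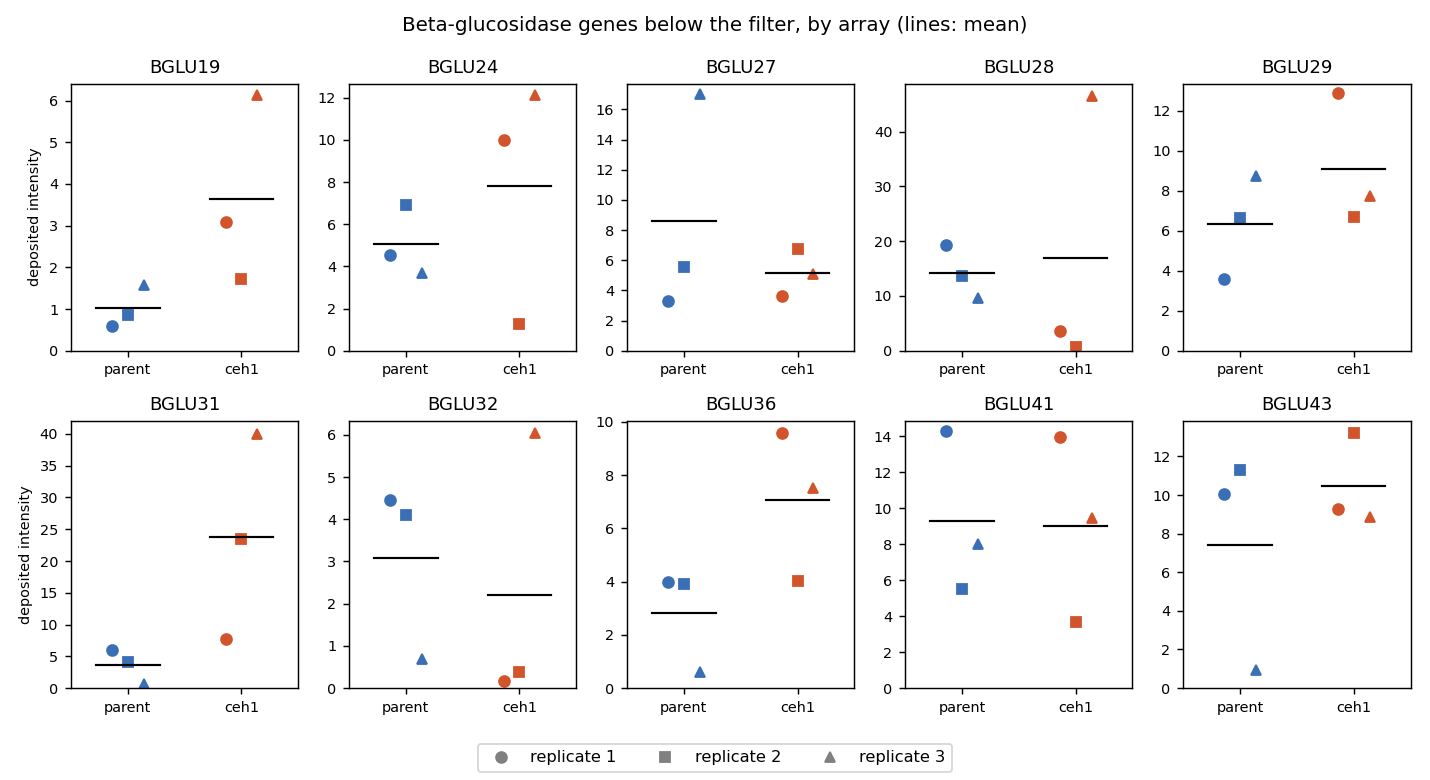
Deposited intensities, on linear axes that start at 0 and differ between panels, of the 10 beta-glucosidase genes below the brightness filter. Points are the 6 arrays and lines the means. BGLU31 reaches 40.1 in ceh1 replicate 3 against at most 6.002 in the parent, while for BGLU28 the ceh1 arrays spread from 0.732 to 46.4.

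Other lists linked to these enzymes had few genes to measure. Among 8 lists with 90 entries, 15 genes were named and 11 tested, of which 1 rose, JAL23, and 0 fell (limma, adjusted p under 0.05). Over all probe sets tested, 2.62% were called higher and 1.15% lower. At an unadjusted p under 0.05, 4 of the 11 were higher and 0 lower, beside 20.9% of all probe sets tested in either direction. For indole glucosinolates, the substrates of PYK10, the 1 named gene of 16 was UGT74B1, a glucosyltransferase of glucosinolate synthesis, with a log2 difference of −0.13 (limma, adjusted p = 0.849). Genes of the lists for myrosinases with their partner proteins and for dark-inducible genes are not analysed here for want of a single-gene probe set in the annotation used. Markers of root cells, where PYK10 and BGLU42 are known to be active, were named for 3 of 10 genes, EXPA7, EXPA18 and PRX72, and all 3 were below the filter. Their summed intensity was 5.57 to 19.1 in the parent and 5.02 to 14.6 in ceh1. For green leaf cells the 2 of 7 named genes, RCA and PRK, summed to 11254 to 15600.1 in the parent and 10356.5 to 10977 in ceh1, with log2 differences of −0.22 and −0.37 (limma, adjusted p = 0.435 and 0.167). After normalization all ceh1 arrays lay below the parent for PRK, as for 15.1% of all probe sets tested. PRK passed in 1 of 17 alternatives, median scaling (limma, adjusted p = 0.0322), and RCA in 0. The anther marker A9 was between 1.03 and 3.21 in all arrays, and seed markers were not analysed here. The part of tissue proportions in the results above was not tested.

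**Figure D5:**
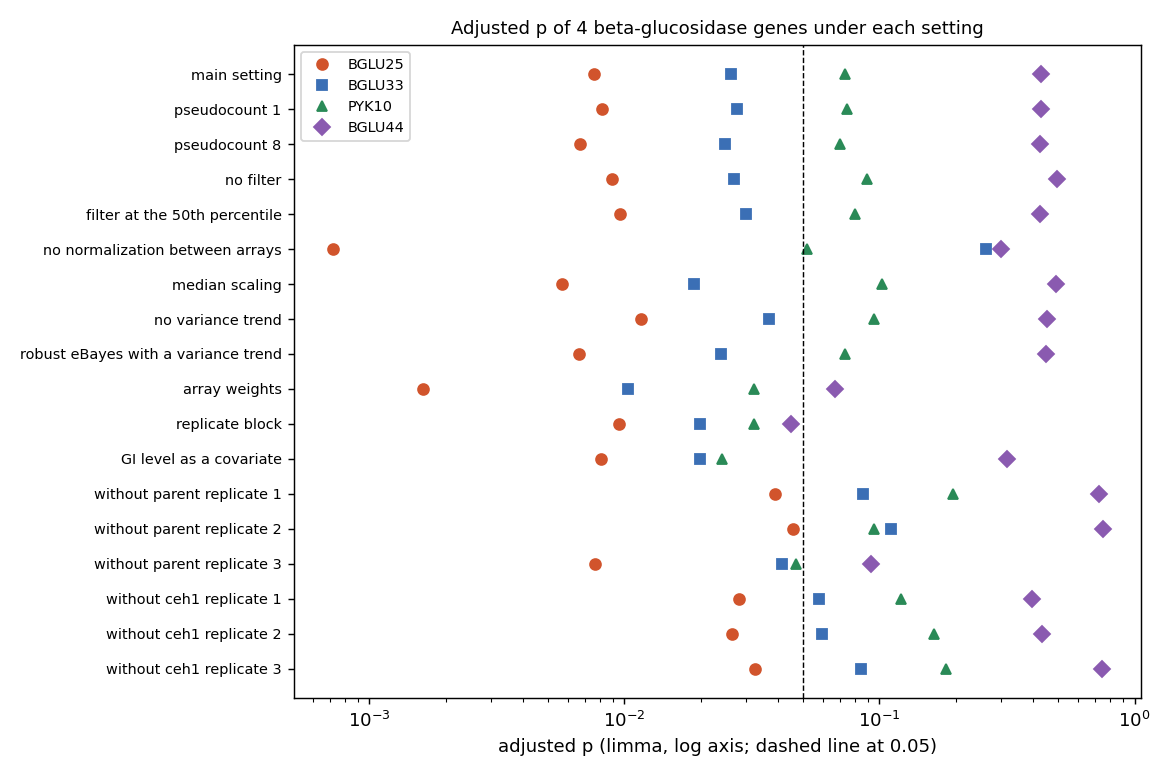
Adjusted p of limma for BGLU25, BGLU33, PYK10 and BGLU44 under the leading setting and 17 alternatives. The horizontal axis is logarithmic, the dashed line marks 0.05 and each row is a setting. BGLU25 stays left of the line in every row, BGLU33 crosses it in 6 alternatives, PYK10 passes in 4 and BGLU44 in 1.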

How the data were processed

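The authors deposited linear probe set intensities, made with MAS5 per the submitters' processing notes. The MAS5 version is not given in the sources used here, nor are its settings or a genome build. The table held 22810 probe sets, 64 of them controls. Of the rest, 13513 were paired with 1 gene, 503 with several and 8730 with none, and members were matched to TAIR10.1 by gene ID (21 of 21).

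Intensities were turned into log2 values after adding a pseudocount of 2 and quantile normalised over the 6 arrays. Fold changes are on this scale, which understates those of dim probe sets. Probe sets whose mean log2 value was below the 30th percentile (3.80) were not tested, which left 15922. The comparison of ceh1 with the parent used limma 3.58.1 under R 4.3.3, with a variance trend in eBayes and two-sided p-values adjusted by Benjamini-Hochberg over all probe sets tested. The fit was tested on simulated data. Arrays have no read depth, and 3 per genotype limit the precision. The labels call the replicates biological.

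Alternatives are given in the closing section. Every member was to be named, from each list the genes past the threshold or else the gene with the largest difference, and the 5 genes most like PYK10. GI and further list genes were chosen after their values were seen. Members, lists, tests and the quantile setting were chosen with earlier results of these data known.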

Additional observations from a re-analysis of the deposited data

How the results depend on the processing

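Among the 11 tested members the direction of the difference held in every alternative that tested the gene, which were 15 to 17 of 17. BGLU25 kept its call in all 17. The 2 calls among members became 1 without normalization between arrays, and 4 with the replicate number of the titles as a block. With an array left out the number of member calls was 1 to 3. BGLU33 was the call lost wherever 1 remained. With the replicate block BGLU44 passed (limma, adjusted p = 0.0449), as did PYK10 (limma, adjusted p = 0.0322) and, outside the family, NAI2 (limma, adjusted p = 0.0497). Deviations from the group means correlated at 0.27, 0.06 and 0.47 for replicates 1, 2 and 3, so the numbers were not taken to pair the arrays, and ceh1 replicate 1 correlated better with parent replicate 2, at 0.34. Over all probe sets, 600 calls became 1815 with array weights, 1160 under the replicate block and 384 when the filter was set at the 50th percentile. They became 947 with the GI level as a covariate, an alternative chosen after seeing the data, and 152 to 676 with an array left out. Without normalization 91.5% of the 718 calls were rises, against 69.5% of the 600. Pseudocounts of 1 and 8 left each member call as it was. The causes were not tested. Signal limits the 10 members below the filter. Of these BGLU28 was also tested in 1 further alternative and the other 9 only in the fit without a filter.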
